A study of Mus musculus with 24 samples.

Results

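The hedgehog signalling genes described here are the ligands Dhh, Shh and Ihh, the receptor Ptch1, the signal transducer Smo, the transcription factors Gli1, Gli2 and Gli3, and the secreted ligand-binding inhibitor Hhip. They were chosen by gene name, as the 9 members among 37074 gene names on the array, and the array held 15 probes for them. Each gene is described by its probe with the highest mean over the 24 arrays, and the other probes serve as a check. All 9 of these probes were tested, and 7 of the 9 were well above background on all 24 arrays.

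A hedgehog ligand binds Ptch1, which otherwise keeps Smo silent, and Smo then switches the Gli proteins from repressors to activators of transcription. Gli1, Ptch1 and Hhip are themselves targets of the pathway in many tissues, so their levels are often read as its output, and Hhip and Ptch1 both hold the ligand back. In peripheral nerve, Dhh is made by Schwann cells and is known to act on the mesenchymal cells that form the perineurium, the sheath around nerve fascicles.

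The samples were nerve fibres of the spinal roots at levels L4 to L6 of C57BL/6 mice, taken at birth (P0) or when the animals were 1, 3 or 5 weeks old (written 1 W, 3 W or 5 W). Efferent fibres (EN) came from the ventral root and afferent fibres (AN) from the dorsal root, and no group is labelled with a transgene or a treatment. Each of the 8 groups had 3 arrays, numbered 1 to 3. Per the study's methods the fibres of 9 animals per age went into 8 tubes, 1 for each group, and 3 independent experiments were assessed. They do not say whether the 3 arrays of a group hold different animals or repeats of 1 pool, so a p-value measures only the spread between arrays, which may be technical. All levels are log2 values of the quantile normalised table of the study, on which 1 unit is a 2-fold step and the median of every array is 6.31. The level of one probe cannot be set against that of another probe.

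The 24 arrays had between 55.1% and 71.7% of their spots well above background and no saturated spot. They lay on 4 slides, on which AN and EN arrays of a number and age always shared a slide, while the 3 W arrays shared none with P0 or 1 W. All 4 Schwann cell markers used (Sox10, S100b, Erbb3, Foxd3) were above background on all arrays of every group. The 6 sensory neuron markers, whose summed level in EN was 14.85 to 15.61 at P0 and 10.41 to 12.02 later, stood at 16.13 to 16.47 in AN at 1 W. At P0 the AN sum was 14.97 to 16.64 and overlapped that of EN, and none of the 6 was called between the nerves. At 5 W the lowest AN array was below all EN arrays of that age, and the other AN arrays stood at 13.44 and 14.63. The third AN array at 3 W stood apart, with a summed sensory neuron level of 17.81 against 12.45 and 12.89 on the other two. Its weight in a fit with array quality weights was 0.216, the lowest of the 24. RNA comes from whole fibres, dissected after the arachnoid had been removed, so fewer cells of a type and less RNA per cell cannot be told apart for any gene below.

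The probes decide what is measured, and the ends of those on which the results turn are given here, as the last 30 bases of each 60-base probe from the scanner files, with the position of the whole probe on mm9 (minus strand for all of them). Capitals mark the hexamer AATAAA, the usual signal for the end of a transcript.
Dhh (chr15:98723465-98723524): tttgtggccaaAATAAAgattctagagtga
Gli1 (chr10:126766967-126767026): gaaagaacaaactttaataatgacacagtt
Ptch1, probe 1 (chr13:63638793-63638852): tttagaaaatccagtacgctaagttctccc
Ptch1, probe 2 (chr13:63612907-63612966): catgtcaggtgtgagaggagggactcaaag
Ptch1, probe 3 (chr13:63644484-63644827): cctcttgatgtggcccttgttttgaatggt
Hhip, probe 1 (chr8:82489879-82489938): ggatttaatgaatttttaggtgaaaggatg
Hhip, probe 2 (chr8:82494280-82494339): ttttgtctctgttactttctcttcatagtc
The probes of Dhh, Gli1 and Hhip and probes 2 and 3 of Ptch1 were designed on RefSeq transcripts of these genes. The brightest Ptch1 probe was designed on another Ptch1 transcript (ENSMUST00000195258) and lies between the other Ptch1 probes. Probe 3 covers 344 bases with its 60, so it is laid over a gap. No mm9 annotation was used here, so exons and UTRs are not assigned.

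**Figure D1:**
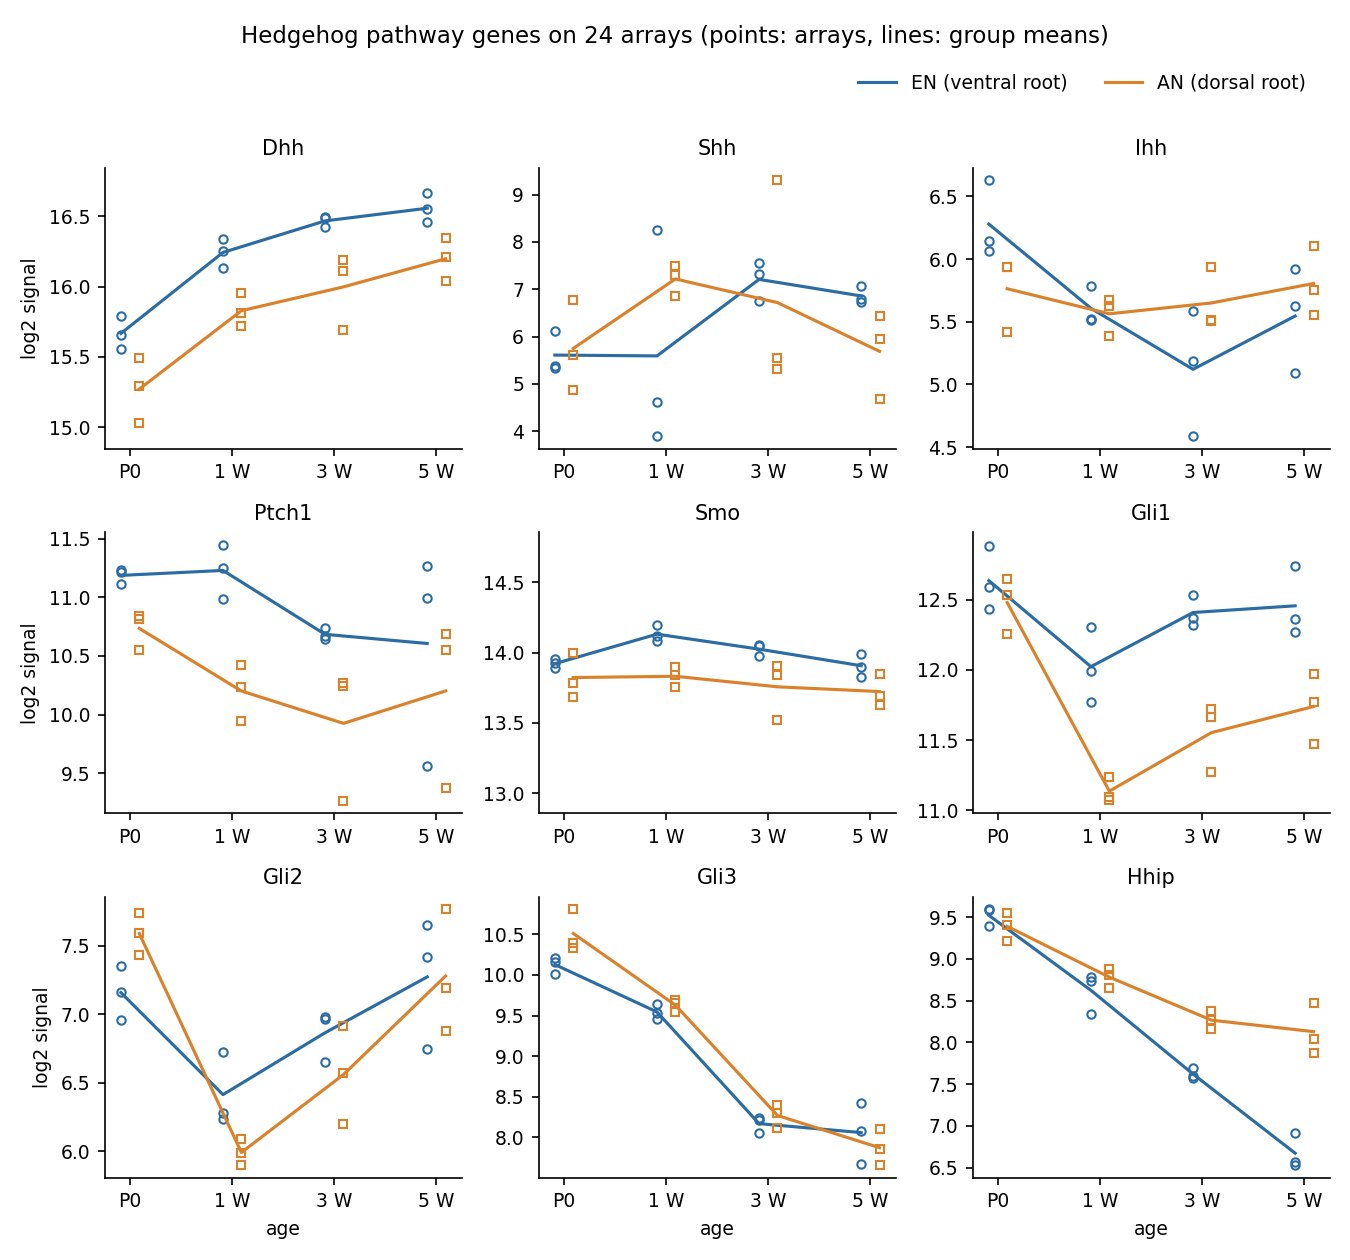
Log2 signal of the 9 hedgehog genes against age, with 1 point for each of the 24 arrays (circles EN, squares AN) and lines through the means of 3 arrays. Dhh climbed with age with EN above AN, Hhip and Gli3 dropped, Gli1 and Gli2 were lowest at 1 W, and Hhip ended at 6.67 in EN and 8.13 in AN at 5 W. The scale of each panel is its own and covers at least 2 log2 units.

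Dhh, the Schwann cell ligand, was higher on EN than on AN arrays at every age and rose with age in both. Its levels in EN were 15.79, 15.56 and 15.65 at P0, 16.25, 16.34 and 16.13 at 1 W, 16.48, 16.42 and 16.49 at 3 W, and 16.66, 16.46 and 16.55 at 5 W. In AN they were 15.49, 15.03 and 15.29 at P0, 15.82, 15.95 and 15.72 at 1 W, 16.11, 16.19 and 15.69 at 3 W, and 16.34, 16.04 and 16.21 at 5 W. The EN and AN arrays of an age did not overlap, and in each of the 12 pairs of same-numbered arrays the EN array was the higher.

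By group means the largest part of the Dhh rise fell in the first week, a split that was not tested. Against P0, Dhh was 0.58 log2 units higher in EN at 1 W (SE 0.14, adjusted p = 0.00494 by limma) and 0.56 higher in AN (SE 0.14, adjusted p = 0.00756). By 5 W the rise was 0.89 in EN, or 1.85-fold (adjusted p = 2.89e-05), and 0.93 in AN, or 1.90-fold (adjusted p = 1.99e-05). On the slides that hold P0 and 1 W arrays, the change at 1 W was 0.462 and 0.53 in EN and 0.325 and 0.557 in AN. P0 and 5 W arrays share 1 slide, and there the difference of 1 array from the mean of 2 was 0.85 in EN and 0.88 in AN. Over the same span the summed level of the Schwann cell markers went from 15.90-15.99 up to 17.78-17.92 on the EN arrays and from 15.61-15.74 up to 17.56-17.65 on the AN arrays, but single markers went different ways. S100b rose (2.96 in EN, 3.57 in AN, adjusted p = 2.13e-12 and 7.75e-13), as did Sox10 (0.65 and 1.13, adjusted p = 0.0123 and 0.000161), whereas Erbb3 fell (-1.46 and -0.32, adjusted p = 1.67e-08 and 0.0378) and Foxd3 fell in EN (-0.74, adjusted p = 0.00138). The part of Schwann cell content in the Dhh rise was not tested.

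The AN-EN difference of Dhh was nearly the same size at each age. From the youngest to the oldest age it was -0.40, -0.41, -0.47 and -0.36 (SE 0.14 each), and none of these passed the adjusted threshold alone (adjusted p = 0.331, 0.125, 0.0541 and 0.141). Averaged over the 4 ages, the difference was -0.41 (SE 0.07, 1.33-fold, adjusted p = 0.000375). With the pairs of same-numbered arrays as a block, the differences at 1 W, 3 W and 5 W passed too (SE 0.10, adjusted p = 0.0283, 0.0106 and 0.028), and that at P0 did not (adjusted p = 0.0609). The difference did not change detectably with age, since its later values less that at P0 were -0.02, -0.07 and 0.04, each with an SE of 0.20. The summed level of the Schwann cell markers was lower on all AN than on all EN arrays at each age, but its members did not move together. In the average over age S100b was lower in AN (-0.79, adjusted p = 9.7e-08), Erbb3 (0.81, adjusted p = 9.7e-08) and Foxd3 (0.58, adjusted p = 0.000114) were higher, and the Sox10 difference of 0.28 did not pass (adjusted p = 0.0655). The direction of the sum thus depends on which markers it holds, and its part in the Dhh difference was not tested.

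Ptch1, the ligand receptor, was also higher in EN in all 12 pairs. Its EN levels were 11.22, 11.23 and 11.11 at P0, 11.25, 11.45 and 10.99 at 1 W, 10.67, 10.74 and 10.65 at 3 W, and 10.99, 11.26 and 9.57 at 5 W. The AN levels were 10.84, 10.55 and 10.81 at P0, 10.42, 10.24 and 9.95 at 1 W, 10.27, 10.24 and 9.27 at 3 W, and 10.68, 10.55 and 9.37 at 5 W. The groups did not overlap at P0, 1 W and 3 W and overlapped at 5 W, where the third array of either nerve was more than 1 unit below its neighbours.

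Averaged over age, the Ptch1 difference was -0.66 (SE 0.19, 1.58-fold lower in AN, adjusted p = 0.0165). By age the difference was -0.45, -1.03, -0.76 and -0.40 (SE 0.37 each), and none passed on its own. With the pairs as a block, the SE was 0.18 and the differences at 1 W (adjusted p = 0.00886) and 3 W (adjusted p = 0.0168) passed. Both other Ptch1 probes gave the same direction of the average, -0.79 (SE 0.11, adjusted p = 5.24e-05) for probe 2 and -0.30 (SE 0.10, adjusted p = 0.0376) for probe 3. Probe 2 passed by itself at 1 W (-0.88, adjusted p = 0.0248) and 3 W (-0.99, adjusted p = 0.0105).

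The course of Ptch1 with age depended on the probe. In the main fit probe 1 passed against P0 at no age in either nerve. In EN its 4 lowest arrays, the third array of 5 W and the 3 arrays of 3 W, lay on 1 slide, as did its 2 lowest in AN. Its EN change of -0.50 at 3 W was called with both groups fitted alone (adjusted p = 0.0039) and with array quality weights (-0.51, adjusted p = 0.0394). Fitted with the slide as a block, this change turned to 0.90. Probe 2 fell by 0.53 in EN from P0 to 5 W (SE 0.22, adjusted p = 0.0455). Probe 3 was higher, by 0.70 in EN at 3 W (SE 0.20, adjusted p = 0.00587) and by 0.68 in AN at 5 W (SE 0.20, adjusted p = 0.00768). The direction of Ptch1 with age is therefore not given.

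**Figure D2:**
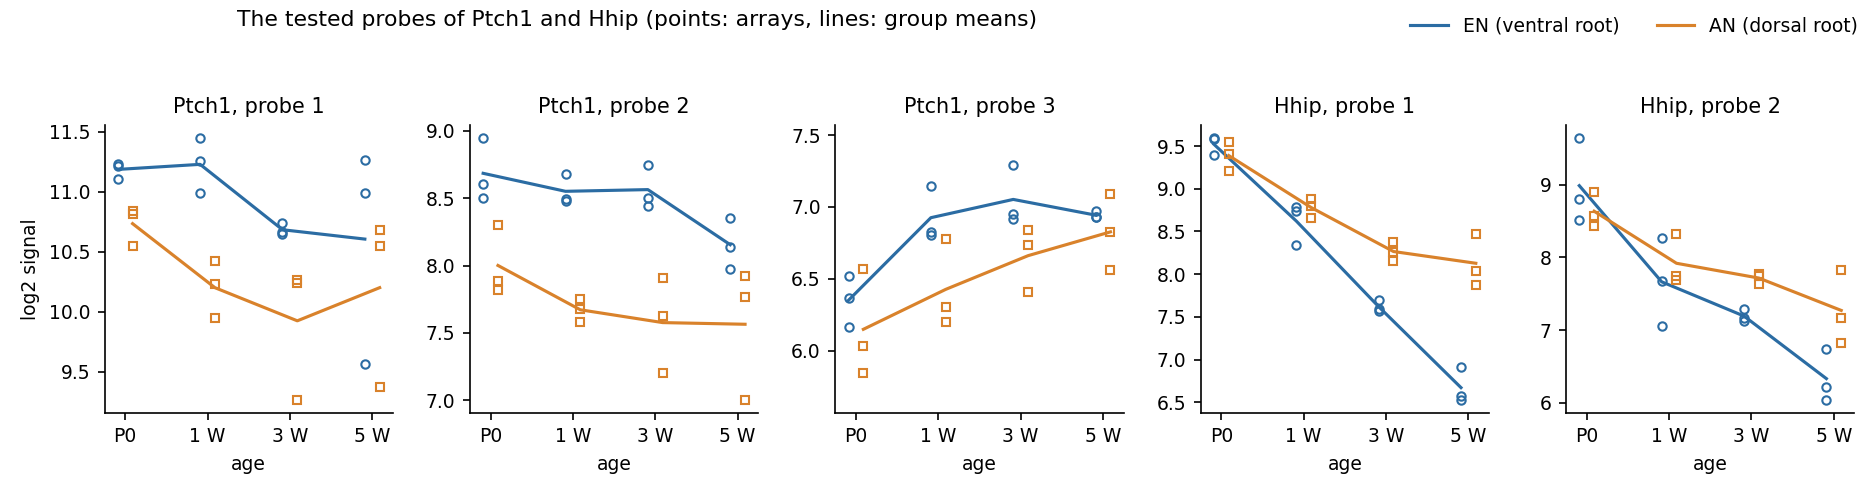
Log2 signal against age for the 3 Ptch1 probes and the 2 Hhip probes (points are arrays, lines group means, circles EN and squares AN). EN lies above AN for all 3 Ptch1 probes, while probe 3 climbs with age and probe 2 does not, and both Hhip probes drop further in EN than in AN.

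Smo, the transducer that Ptch1 holds silent, was nearly flat. It lay between 13.83 and 14.19 on the 12 EN arrays and between 13.52 and 14.00 on the 12 AN arrays. Averaged over age the AN-EN difference was -0.21 (SE 0.06, 1.16-fold, adjusted p = 0.0101), with EN higher in 11 of 12 pairs, and no single age passed. Against P0 its change lay between -0.10 and 0.21 in both nerves and at all ages (SE 0.11 each), and none passed.

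Gli1, whose gene is switched on by the pathway, was lower in AN than in EN at 1 W, 3 W and 5 W. The EN levels were 12.59, 12.88 and 12.43 at P0, 11.77, 11.99 and 12.31 at 1 W, 12.37, 12.32 and 12.53 at 3 W, and 12.27, 12.74 and 12.36 at 5 W. The AN levels were 12.26, 12.65 and 12.53 at P0, 11.08, 11.10 and 11.24 at 1 W, 11.67, 11.72 and 11.27 at 3 W, and 11.48, 11.97 and 11.77 at 5 W. The nerves overlapped at P0 and did not overlap at 1 W, 3 W or 5 W.

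Gli1 dipped in the first week in both nerves. It fell by 1.34 in AN (SE 0.18, 2.53-fold, adjusted p = 2.99e-05) and fell by 0.61 in EN (SE 0.18, 1.53-fold, adjusted p = 0.0158). In AN its change since P0 was still -0.74 at 5 W (adjusted p = 0.00198), whereas in EN this change was -0.23 at 3 W and -0.18 at 5 W and did not pass (adjusted p = 0.292 and 0.414). Within the slides that hold P0 and 1 W arrays, the change was -1.18 and -1.35 in AN and -0.82 and -0.35 in EN. The EN dip did not pass without the second P0 array (-0.49, adjusted p = 0.0804) or the first 1 W array (-0.49, adjusted p = 0.0926), nor with both groups fitted alone (adjusted p = 0.0632).

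Between the nerves, Gli1 was lower in AN, with a difference of -0.89 at 1 W (1.85-fold, adjusted p = 0.00776), -0.85 at 3 W (1.81-fold, adjusted p = 0.00794) and -0.72 at 5 W (1.64-fold, adjusted p = 0.0194) and an SE of 0.18. At P0 the difference was -0.16 (unadjusted p = 0.39, adjusted p = 1). The 5 W call was lost without the first AN array (-0.58, adjusted p = 0.0856) or the second EN array (-0.58, adjusted p = 0.0913). It was also lost when both groups were fitted alone (adjusted p = 0.242), and held with the pairs as a block (SE 0.13, adjusted p = 0.00549). The test of whether the difference had grown since P0 gave -0.73 at 1 W, -0.70 at 3 W and -0.56 at 5 W (SE 0.25 each) and did not pass (adjusted p = 0.388, 0.316 and 0.419). A larger difference after birth is therefore not shown for Gli1.

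Hhip, the inhibitor that binds hedgehog ligands at the cell surface, fell from birth on, and more in EN. In EN it stood at 9.59, 9.58 and 9.39 at P0, 8.34, 8.74 and 8.79 at 1 W, 7.70, 7.57 and 7.60 at 3 W, and 6.57, 6.92 and 6.53 at 5 W. In AN it stood at 9.55, 9.41 and 9.21 at P0, 8.66, 8.80 and 8.88 at 1 W, 8.16, 8.27 and 8.38 at 3 W, and 7.87, 8.47 and 8.04 at 5 W. The nerves overlapped at P0 and at 1 W, and all AN arrays were above all EN arrays at 3 W and 5 W.

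From P0 to 5 W, Hhip dropped by 2.85 in EN (SE 0.16, 7.21-fold, adjusted p = 6.32e-11) and dropped by 1.26 in AN (SE 0.16, 2.40-fold, adjusted p = 2.14e-06). The drop was past the threshold at all 3 later ages in both nerves. On the slide that P0 and 5 W share the change was -2.57 in EN and -0.84 in AN. AN exceeded EN by 0.65 at 3 W (SE 0.16, adjusted p = 0.0194) and by 1.46 at 5 W (SE 0.16, 2.74-fold, adjusted p = 1.7e-05). The 3 W call was lost without any 1 of the EN arrays of 3 W or without the third AN array of 3 W (0.59 to 0.68, adjusted p = 0.0505 to 0.0758). The 5 W call was lost when both groups were fitted alone (adjusted p = 0.0848). With the pairs as a block both calls held (SE 0.09, adjusted p = 0.0014 at 3 W and 1.77e-05 at 5 W).

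Hhip was the 1 member for which a change of the nerve difference since P0 passed. At 5 W the AN-EN difference exceeded that at P0 by 1.59 (SE 0.22, 3.01-fold, adjusted p = 0.00172), and it passed without any 1 of the 24 arrays. It did not pass when the 4 groups concerned were fitted alone (adjusted p = 0.0605) and passed with the pairs as a block (SE 0.12, adjusted p = 0.000392). At 3 W the excess was 0.78 (SE 0.22, adjusted p = 0.156), which passed with the pairs as a block (SE 0.12, adjusted p = 0.0111). The second Hhip probe had the same directions, but no nerve difference passed with it. Its excess at 5 W over P0 was 1.29 (SE 0.45, adjusted p = 0.22), and AN minus EN itself was 0.52 at 3 W (adjusted p = 0.398), 0.94 at 5 W (adjusted p = 0.0855) and 0.34 in the average (adjusted p = 0.145). For that probe the drop since P0 was not called in AN at 1 W (-0.72, adjusted p = 0.117) and was called in both nerves at 5 W, at -2.65 in EN (adjusted p = 1.2e-06) and -1.37 in AN (adjusted p = 0.00138).

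**Figure D3:**
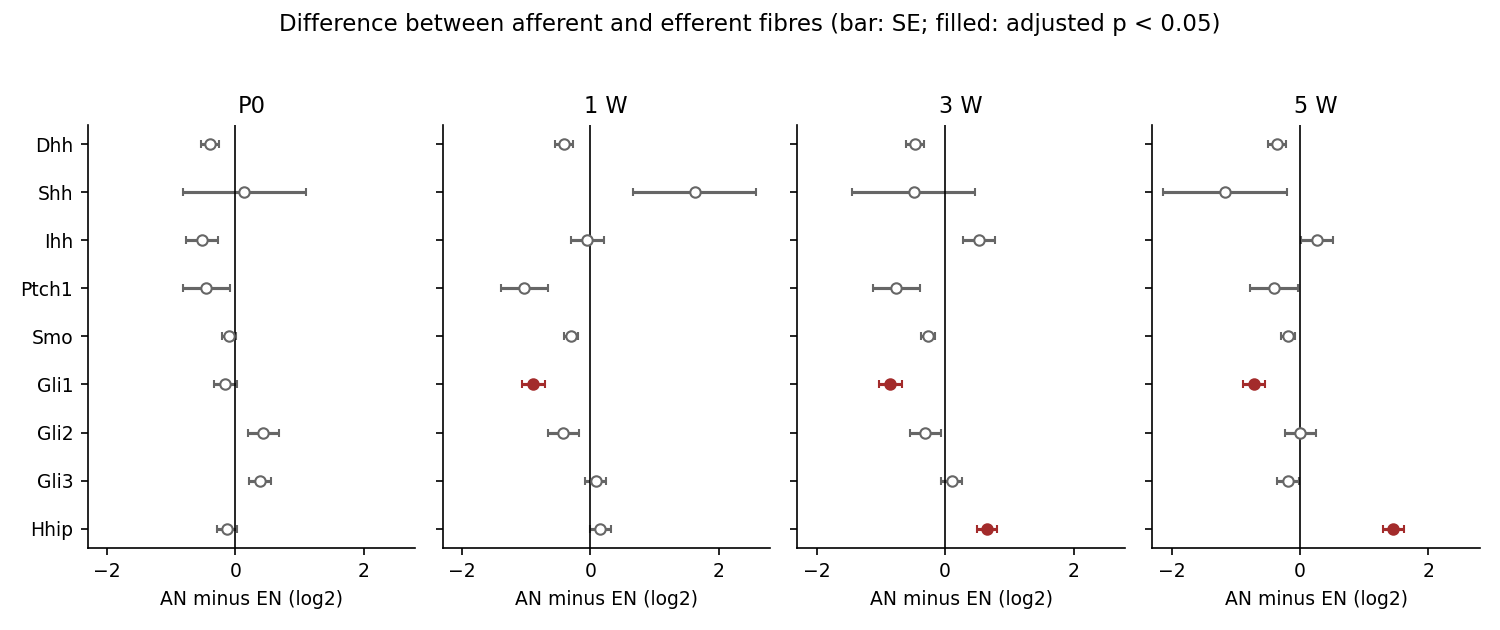
AN minus EN in log2 units for the 9 genes, with 1 panel for each age (point, fitted difference of 3 against 3 arrays; bar, SE; filled, adjusted p below 0.05). Gli1 is filled below 0 at 1 W, 3 W and 5 W and Hhip above 0 at 3 W and 5 W, and Dhh lies between -0.36 and -0.47 at each age with no filled point.

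Gli3, which in the absence of ligand is mainly a repressor of target genes, fell in both nerves, and the nerve difference passed at no age. In EN its levels were 10.21, 10.01 and 10.16 at P0, 9.46, 9.53 and 9.64 at 1 W, 8.24, 8.05 and 8.22 at 3 W, and 8.08, 7.68 and 8.42 at 5 W. In AN they were 10.33, 10.39 and 10.81 at P0, 9.54, 9.65 and 9.69 at 1 W, 8.39, 8.30 and 8.11 at 3 W, and 7.85, 7.66 and 8.11 at 5 W. No later array of either nerve reached its P0 arrays. At P0 all AN arrays were above all EN arrays, and the nerves overlapped at 1 W, 3 W and 5 W.

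By 5 W Gli3 fell by 2.07 in EN (SE 0.17, adjusted p = 7.76e-09) and fell by 2.64 in AN (SE 0.17, 6.23-fold, adjusted p = 3.17e-10). On the shared slide the change was -2.41 in EN and -2.94 in AN. The largest step lay between 1 W and 3 W, where the group mean went from 9.54 to 8.17 (EN) or from 9.63 to 8.27 (AN). The AN-EN difference went from 0.38 at P0 to -0.19 at 5 W (SE 0.17) and passed at no age. Its change since P0 at 5 W, -0.569 (SE 0.235), did not pass either (adjusted p = 0.349, and 0.0526 with the pairs as a block).

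Gli2, the main activator of the pathway in many tissues, was lowest at 1 W in both nerves. Its EN levels were 7.35, 7.16 and 6.96 at P0, 6.28, 6.72 and 6.24 at 1 W, 6.97, 6.65 and 6.98 at 3 W, and 7.42, 6.75 and 7.65 at 5 W. Its AN levels were 7.44, 7.74 and 7.60 at P0, 5.90, 5.98 and 6.09 at 1 W, 6.57, 6.91 and 6.20 at 3 W, and 7.19, 6.88 and 7.77 at 5 W. In both nerves all 1 W arrays were below all P0 arrays, and the 5 W arrays overlapped those of P0. All AN arrays were above all EN arrays at P0 and below them at 1 W.

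The Gli2 change at 1 W was -1.60 in AN (SE 0.24, 3.03-fold, adjusted p = 0.000107), and -0.75 in EN (SE 0.24, 1.68-fold, adjusted p = 0.0273). At 3 W the AN change was -1.03 (adjusted p = 0.00154), and the EN change of -0.29 did not pass (adjusted p = 0.313). At 5 W neither passed (0.11 in EN, -0.31 in AN). On the slide that P0 and 5 W share, however, the 5 W change was -0.31 in EN and -0.79 in AN. With the slide as a block, the AN change at 5 W (-0.69, adjusted p = 0.0085) and the EN change at 3 W (-1.11, adjusted p = 0.00372) were called, so a return of Gli2 to its P0 level is not shown. The EN dip lost its call without the first or second P0 array or without the first or the third 1 W array (-0.75 to -0.65, adjusted p = 0.062 to 0.0956). The test of the nerve difference at 1 W against that at P0 gave -0.86 (SE 0.34, adjusted p = 0.509) and did not pass.

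The other ligands were dim. Shh, best known from the floor plate of the neural tube, was above background on 19 of 24 arrays. In EN its levels were 5.33, 6.12 and 5.38 at P0, 4.63, 8.25 and 3.90 at 1 W, 6.76, 7.55 and 7.31 at 3 W, and 7.06, 6.73 and 6.79 at 5 W. In AN they were 5.60, 6.77 and 4.87 at P0, 6.87, 7.29 and 7.49 at 1 W, 5.54, 5.31 and 9.30 at 3 W, and 6.44, 5.96 and 4.67 at 5 W. Arrays of the same group lay up to more than 4 units apart, and the value of 9.30 came from the AN array with the high sensory neuron markers. With an SE of 0.96, Shh passed in no comparison, and a difference as large as the 1.63 between the nerves at 1 W was not detectable. Fitted on the compared groups alone, which leaves out the widest groups (1 W EN with an SD of 2.33 and 3 W AN with 2.24), its EN change since P0 passed at 3 W (1.60, adjusted p = 0.00345) and at 5 W (1.25, adjusted p = 0.00785).

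Ihh, best known from growing cartilage, was above background on 21 of 24 arrays and lay between 4.59 and 6.63 on all of them. Its EN levels were 6.07, 6.63 and 6.14 at P0, 5.52, 5.78 and 5.52 at 1 W, 4.59, 5.19 and 5.59 at 3 W, and 5.09, 5.63 and 5.92 at 5 W. In EN it fell by 1.16 at 3 W (SE 0.25, 2.23-fold, adjusted p = 0.000795) and fell by 0.73 at 5 W (SE 0.25, adjusted p = 0.0195). The 5 W call was lost without the second P0 array (-0.56, adjusted p = 0.0999) or the first 5 W array (-0.51, adjusted p = 0.118), and with both groups fitted alone (adjusted p = 0.0645). The first EN array of 3 W and the second of 5 W were not well above background, so the size of these changes is uncertain. In AN, with levels of 5.39 to 6.11, Ihh changed by -0.20 to 0.04 and passed at no age. With the pairs as a block, AN was 0.53 above EN at 3 W (adjusted p = 0.0495), a gain of 1.04 since P0 (adjusted p = 0.0412), neither of which passed without the block (adjusted p = 0.255 and 0.269). The first EN array of 3 W and the third AN array of P0, which enter this gain, were not well above background, so its size is uncertain too. The second Ihh probe was above background on 2 arrays, the second probe of Smo on 1 and that of Gli1 on 2, and these 3 were not tested.

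**Figure D4:**
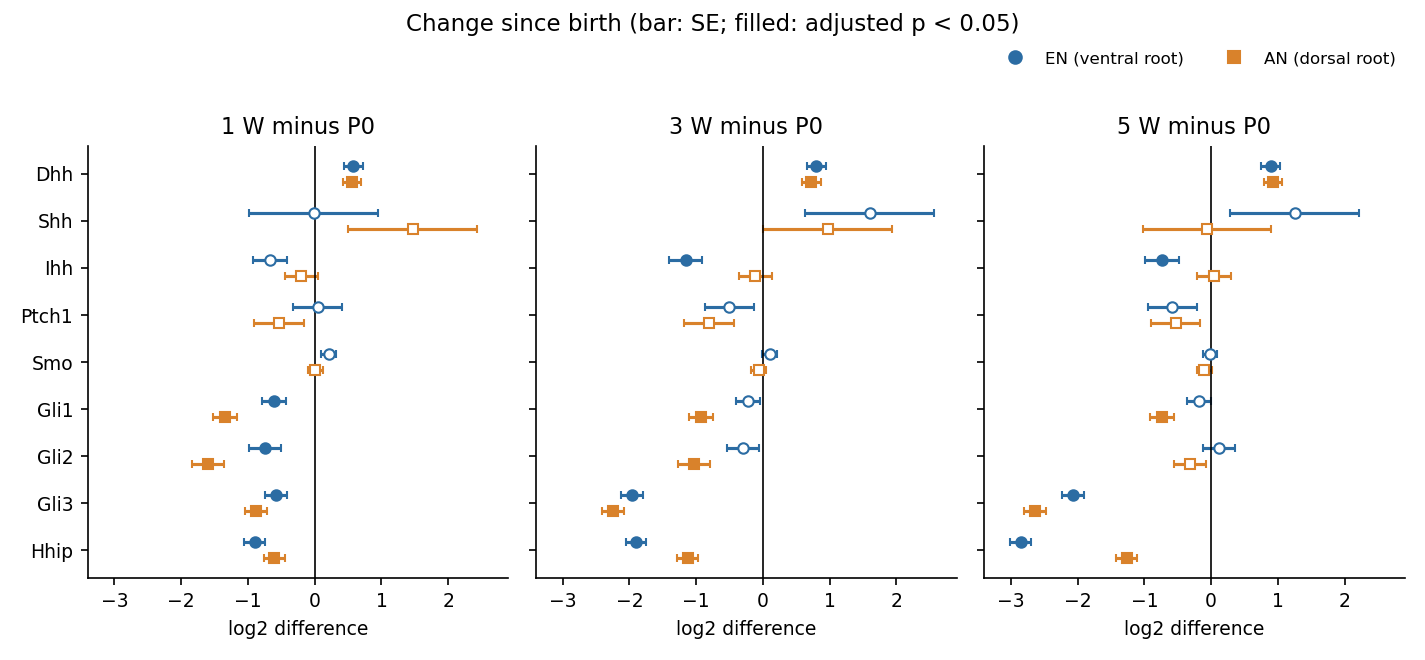
Log2 change since P0 at 1 W, 3 W and 5 W for the 9 genes in EN (circles) and AN (squares), with the SE as a bar and filled points where the adjusted p was below 0.05. Dhh is filled above 0 and Gli3 and Hhip below 0 in all 6 comparisons, and Hhip is the lowest point in EN at 5 W, at -2.85.

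Counted over the 9 genes, the nerves differed in none at P0, where 0.222% of the 36409 tested probes were called higher and 0.516% lower in AN. Unadjusted limma p-values there were 0.0108 for Dhh and 0.0329 for Gli3. The shares are for adjusted p and cannot be set beside these values. At 1 W, 1 of 9 was lower (Gli1) and none higher, against 1.26% lower and 2.74% higher among all probes. At 3 W, 1 was higher (Hhip) and 1 lower (Gli1), against 3.07% and 2.82%. At 5 W the same 2 genes were called in the same directions, against 3.52% and 3.24%. In the average over age, 1 was higher (Hhip) and 4 were lower (Dhh, Ptch1, Smo, Gli1), against 9.13% and 10.3%. The median difference of the 9 was -0.07 in that average, beside -0.03 over all tested probes.

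With the pairs as a block, none of the 9 was called at P0, beside 1401 of the 36409 tested probes. In the average over age, Dhh, Ptch1, Smo, Gli1 and Hhip were called with it as without it, beside 14251 probes. At 1 W, 3 of 9 were called (Dhh, Ptch1, Gli1) beside 10.8% of all probes. At 3 W it was 5 of 9 (Dhh, Ihh, Ptch1, Gli1, Hhip) beside 21.1%, and at 5 W 3 of 9 (Dhh, Gli1, Hhip) beside 23.5%. For the change of the difference since P0 at 3 W, 2 of 9 were called with the block (Ihh, Hhip) beside 4.12%, and none without it beside 0.615%. Without the block that change was called for none of the 9 at 1 W, beside 0.0632%, and for 1 at 5 W (Hhip), beside 1.14%. Unadjusted p-values of that fit were below 0.05 for Gli1, Gli2, Ihh and Hhip at 3 W and for Gli1 and Gli2 at 1 W. The share of all probes below that unadjusted limit was not taken, so these genes are not read as a result.

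Against P0, the background was higher because much of the transcriptome moved. In EN at 1 W, 1 of 9 rose (Dhh) and 4 fell (Gli1, Gli2, Gli3, Hhip), against 15.5% and 11.6% of all probes. In EN at 3 W, 1 rose (Dhh) and 3 fell (Ihh, Gli3, Hhip), against 29% and 26%, and at 5 W the same genes did so against 28.2% and 26%. In AN at 1 W, 1 rose (Dhh) and 4 fell (Gli1, Gli2, Gli3, Hhip), against 12.3% and 9.35%. In AN at 3 W the same 5 moved the same way, against 26.8% and 24.9%, and at 5 W 1 rose (Dhh) and 3 fell (Gli1, Gli3, Hhip), against 26.4% and 24.2%. The comparisons with P0 within a nerve share the same P0 arrays.

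Of 51 further genes of the pathway listed by role, 50 were on the array and tested. In the average over age, 7 were higher and 8 lower in AN, beside the 9.13% and 10.3% of all probes. Against P0 at 5 W, 13 rose and 14 fell in EN, and 14 rose and 14 fell in AN, beside 28.2% and 26% of all probes in EN and 26.4% and 24.2% in AN, with medians of -0.07 and 0.03 beside 0.04 and 0.03 over all probes. The list as a whole thus moved to neither side, and single members moved strongly.

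Among the co-receptors and ligand-binding proteins (Boc, Cdon, Gas1, Lrp2), none of the 4 passed between the nerves in the average, beside 9.13% higher and 10.3% lower among all probes. Gas1, a ligand-binding co-receptor, fell by 2.14 in EN (adjusted p = 4.43e-05) and fell by 1.94 in AN (adjusted p = 0.000134) from P0 to 5 W, and Cdon, a co-receptor too, rose by 1.20 in EN (adjusted p = 0.000127) and 1.74 in AN (adjusted p = 2.14e-06).

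Of 6 genes of ligand release, 2 were higher (Disp2, Scube3) and 2 lower (Disp1, Scube1) in AN in the average, beside 9.13% and 10.3% of all probes. Scube1, from a family of secreted proteins that help release lipid-bearing ligand, differed by -1.36 in the average (lower in AN, adjusted p = 1.03e-07), with EN at 12.30, 12.42 and 11.91 and AN at 10.56, 10.74 and 10.34 at 1 W, where the groups did not overlap. Scube3 was at least 6.43-fold lower in EN at 5 W than at P0 (means 4.37 and 7.95, adjusted p = 7.06e-08), a bound because it was well above background on 1 of the 3 EN arrays at 5 W and each array's lowest signal well above background was used in its place where higher. In AN it fell by 2.08 (adjusted p = 4.76e-05).

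Disp1, which lets ligand leave the producing cell, rose by 1.31 in EN (adjusted p = 5.37e-06) and by 2.38 in AN (adjusted p = 2.64e-09) from P0 to 5 W. Disp2, a relative of Disp1, was 2.55 higher in AN in the average (adjusted p = 4.17e-05), with AN at 10.05, 9.93 and 9.97 and EN at 4.99, 6.21 and 7.21 at 1 W. Its EN level at P0 was 9.20, 9.25 and 9.24, and its AN array with the high sensory neuron markers at 3 W gave 11.24 against 8.55 and 8.73. The sensory neuron markers went the same way as Disp2 between the nerves in the average and with age in EN. In the average 6 of 6 were higher in AN, beside 9.13% of all probes, and 6 of 6 were lower in EN at 5 W than at P0, beside 26%. In AN, 4 of 6 were lower at 5 W than at P0 (median change -3.3), beside 24.2%, while the Disp2 mean went from 9.68 to 9.07. The part of sensory neuron RNA in the Disp2 values was not tested.

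Among the 14 regulators of Smo and the cilium, Evc2, a ciliary protein that binds Smo, rose by 3.37 in EN (adjusted p = 4.57e-10) and by 3.31 in AN (adjusted p = 5.69e-10) from P0 to 5 W, and its average AN-EN difference was -0.53 (adjusted p = 0.0017). In all, 6 of these 14 rose and 2 fell in EN by 5 W, and 7 rose and 1 fell in AN, beside 28.2% and 26% of all probes in EN and 26.4% and 24.2% in AN. Of the 16 Gli regulators, 2 rose and 3 fell in EN and 3 rose and 3 fell in AN, beside the same shares. Itch, a ubiquitin ligase, rose by 1.58 in EN (adjusted p = 2.38e-09) and Spop, an adaptor of ubiquitin ligase for Gli proteins, by 1.08 (adjusted p = 7.1e-08).

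Of 10 genes that Gli proteins regulate in other tissues, 2 rose and 5 fell in EN by 5 W, and 1 rose and 6 fell in AN, again beside 28.2% and 26% in EN and 26.4% and 24.2% in AN. Ccnd1 and Ccnd2 encode D-type cyclins of the cell cycle. Ccnd1 fell by 2.24 in EN (adjusted p = 2.54e-09) and fell by 2.22 in AN (adjusted p = 2.57e-09), and the average AN-EN difference of Ccnd2 was -1.07 (adjusted p = 7.32e-07). Foxl1, a mesenchymal transcription factor, fell by 2.46 in EN (adjusted p = 7.01e-05), where the 5 W arrays were at 7.40, 7.54 and 4.94 with the third not well above background, and the change without that array was -1.62. Nkx2-2, a transcription factor of the ventral neural tube, was above background on all AN arrays and no EN array at 1 W, at least 3.74-fold higher in AN (means 6.78 and 3.74, adjusted p = 0.00021), with the same kind of limit for EN.

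**Figure D5:**
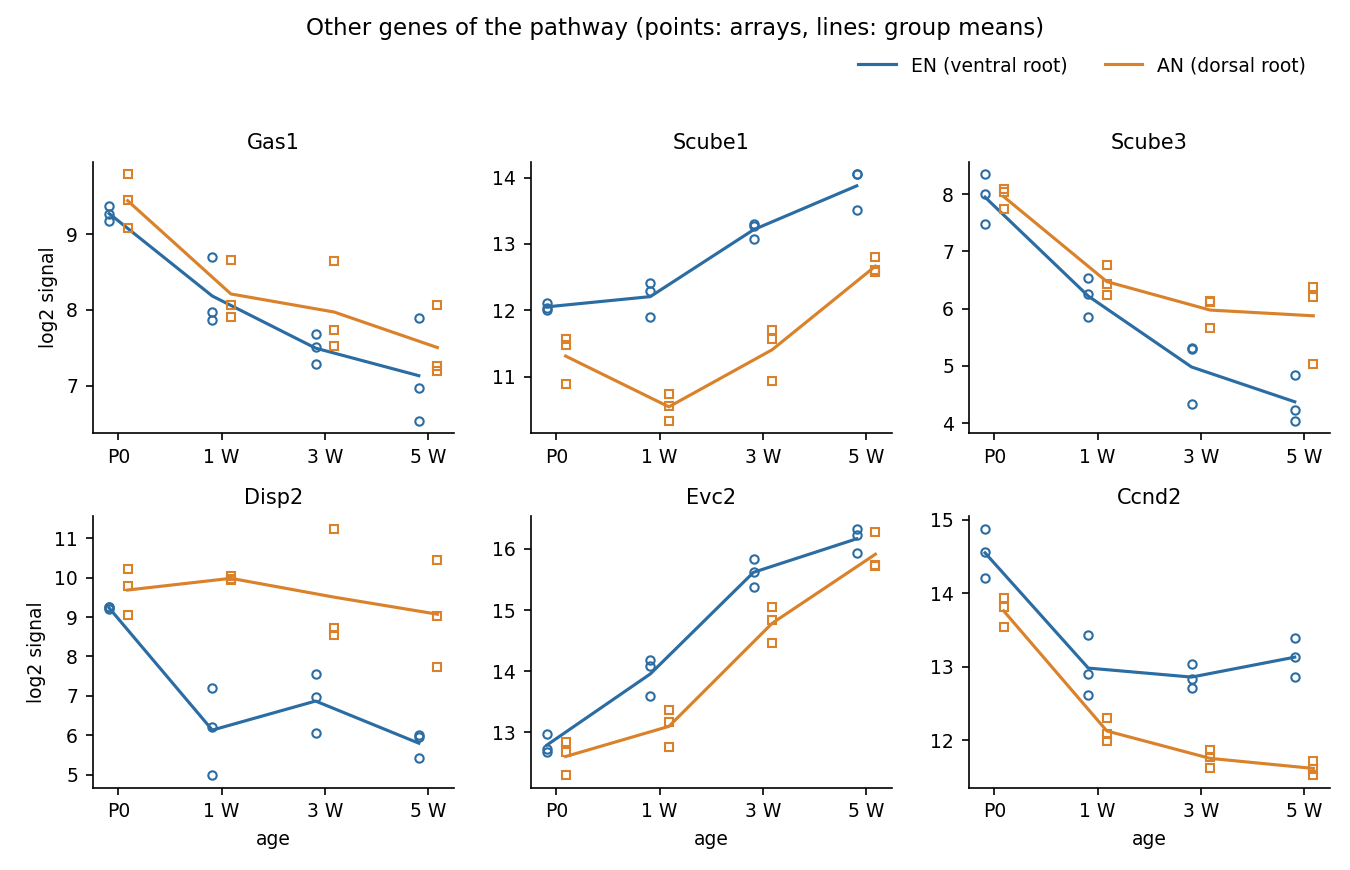
Log2 signal against age for Gas1, Scube1, Scube3, Disp2, Evc2 and Ccnd2 (points are arrays, lines group means, circles EN and squares AN). Scube1 and Ccnd2 lie lower in AN at every age, Disp2 drops in EN after P0 and stays high in AN, and Evc2 climbs in both nerves.

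Marker lists of cells that could respond to hedgehog ligand were set beside these genes. The summed level of 7 perineurial markers was 14.56 to 14.86 on EN and 14.75 to 15.04 on AN arrays at P0, and 15.95 to 16.33 on EN and 16.15 to 16.57 on AN arrays at 5 W, with all 7 above background in every group. At 1 W it was 14.84 to 15.02 in EN and 14.76 to 14.80 in AN, and at 3 W 16.05 to 16.13 and 15.91 to 16.15. By 5 W 2 of the 7 rose in both nerves (Slc2a1 and Itgb4) and 1 fell (Cldn1, a tight junction protein), while Moxd1, Perp, Lypd2 and Krt19 did not pass. The median change of the 7 was 0.16 in EN and -0.35 in AN. Among all tested probes 28.2% rose and 26% fell in EN, and 26.4% rose and 24.2% fell in AN. Cldn1 was lower in AN at 1 W (-0.85, adjusted p = 0.0194), 3 W (-0.74, adjusted p = 0.0351) and 5 W (-1.19, adjusted p = 0.00118). In the average Cldn1 and Krt19 were lower in AN and Itgb4 was higher, beside 10.3% lower and 9.13% higher among all probes.

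The summed level of 7 fibroblast markers was 18.87 to 19.13 in EN and 18.77 to 19.22 in AN at 1 W. There 1 of the 7 was called lower in AN (Pdgfra), beside 1.26% of all probes. At 3 W the fibroblast sum was 19.35 to 19.50 in EN and 18.97 to 19.29 in AN, and 3 of 7 were called lower in AN (Pdgfra, Lum, Col1a1), beside 2.82%. None was called at P0, beside 0.516%, and 2 of 7 were lower in AN at 5 W and in the average, beside 3.24% and 10.3%. By 5 W 4 of the 7 rose and none fell in EN, beside 28.2% and 26%. In AN 4 rose and 3 fell, beside 26.4% and 24.2%. Of 5 meningeal markers, all above background in every group, 2 were called lower in AN at 1 W (Slc6a13 and Foxc1), none at 3 W, 2 at 5 W (Slc6a13 and Foxc1) and 3 in the average (those and Aldh1a2), with a median difference of -0.77 at 1 W. Their summed level at 1 W was 16.80 to 17.94 in EN and 15.86 to 17.33 in AN. Among all probes 1.26%, 2.82%, 3.24% and 10.3% were called lower in AN at 1 W, 3 W, 5 W and in the average. By 5 W 4 of the 5 meningeal markers fell in both nerves (all but Ptgds), beside 26% of all probes in EN and 24.2% in AN. The median change of these markers was -1.13 in EN and -1.64 in AN. Of 6 markers of immature or non-myelinating Schwann cells, 5 were higher in AN in the average and none lower, beside 9.13% and 10.3% of all probes. The part of these cells in the Gli1, Gli3, Ptch1 and Hhip values was not tested.

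Likeness over the 24 arrays was taken by Pearson's r of the log2 levels of 16904 genes, and it describes these arrays, whose groups of 3 share their age and nerve. The genes most like Dhh were Psmf1 and Has2os (r = 0.975 each), Necap2 (0.974), and Tspan17 and 2900089D17Rik (0.972 each). Against Dhh, Hhip had r = -0.85 and Gli3 -0.76, while Ptch1 (0.02) and Gli1 (-0.04) were near 0. The genes most like Gli1 were Bmp7 (0.899), Thbs4 (0.89), Creb3l1 (0.875), Echdc2 (0.862) and Olfml3 (0.86), and Gli1 had r = 0.63 with Gli2 and 0.53 with Ptch1.

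The stretch before the start of a gene was searched for the 9-letter core to which Gli proteins bind, GACCACCCA, on both strands. RefSeq promoters of GRCm38.p6, from 250 bases before the start to 50 after it, were given for 7 of the 9 genes (Dhh, Ihh, Ptch1, Smo, Gli2, Gli3, Hhip), and 0 of the 7 held the exact core, while 83 of all 32851 promoters (0.253%) held it. The 250 bases before the start are printed for Dhh and Hhip, which moved in opposite directions with age.
Dhh (chr15:98898541-98898790, minus strand): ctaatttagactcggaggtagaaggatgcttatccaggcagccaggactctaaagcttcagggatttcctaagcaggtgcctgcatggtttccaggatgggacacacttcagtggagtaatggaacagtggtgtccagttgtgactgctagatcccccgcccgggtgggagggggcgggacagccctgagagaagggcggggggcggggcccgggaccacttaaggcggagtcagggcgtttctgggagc
Hhip (chr8:80058009-80058258, minus strand): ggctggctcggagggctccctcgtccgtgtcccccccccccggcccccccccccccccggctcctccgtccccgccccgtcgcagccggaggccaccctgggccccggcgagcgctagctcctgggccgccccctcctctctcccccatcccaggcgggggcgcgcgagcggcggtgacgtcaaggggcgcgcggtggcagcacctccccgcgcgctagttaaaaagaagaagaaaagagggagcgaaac
The G and C content of the whole 300 bases was 61.7% for Dhh and 73.7% for Hhip, beside a median of 52.7% over all promoters in the table. No match says only that these letters are not in this window.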

How the data were processed

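The authors hybridised Cy3-labelled RNA to 24 Agilent 8 x 60K mouse arrays, 1 sample on each, and read them with Feature Extraction 10.7.1.1, as the submitters' processing notes and the paper's methods give it. They deposited the fluorescence intensity of each spot with its background and quality marks, and a table of log2 values, quantile normalised in GeneSpring. The log2 table was used as deposited. The deposited spot marks, coded 0 or 1 and handled as other values, gave the filter on dim probes, and the intensity gave the alternatives. Array precision is limited by the number of arrays and, for dim probes, by signal over background (median signal 45.4 to 191, median background 23 to 46).

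Of 56605 gene probes, 36409 entered the tests, those that all 3 arrays of some group measured well above background. A single limma model (3.58.1, R 4.3.3) held the 8 group means (16 residual degrees of freedom), which gave AN minus EN at each age and averaged over age, each later age minus P0, and the change of AN minus EN since P0. A probe was called at a Benjamini-Hochberg adjusted p below 0.05 over all tested probes. The paper's methods name limma, p below 0.05 and a fold change above 2 without a model formula, and these thresholds, with p taken as unadjusted, were an alternative. The fit was tested on simulated data. Positive values of AN minus EN mean higher in AN. Summed marker levels are log2 of the summed linear signals.

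Same-numbered AN and EN arrays of an age shared a slide, and their deviations from the group means correlated in all 12 pairs (r = 0.107 to 0.646, each the highest among the numbers). The main fit held no term for these pairs. A fit with the pairs as a block was run beside it and is given where it changed a call, with its counts. Groups came from the fibre and age on the labels. Genes were named by a rule, namely the 9 members, the called genes of each pathway list with the largest differences (at most 4), and the 5 genes most like Dhh and Gli1. The 9 members, the pathway and marker lists and the tests were chosen with earlier results of these data known. A few genes were dropped from these lists and are not analysed here, and the counts and summed levels hold all other listed genes on the array. Python 3.11.15, numpy 2.4.6, pandas 2.3.3 and matplotlib 3.10.9 were used for tables and figures.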

Additional observations from a re-analysis of the deposited data

Results flagged for a closer look

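The growth of the AN-EN difference of Hhip between P0 and 5 W is listed because 2 ages differed in the same contrast by a test of the difference itself. The difference was -0.13 at P0 and 1.46 at 5 W, and the interaction was 1.588 log2 units (SE 0.222, adjusted p = 0.00172 by limma). In the pairs of same-numbered arrays, AN minus EN was -0.05, -0.18 and -0.18 at P0 and 1.30, 1.55 and 1.51 at 5 W. The second Hhip probe gave 1.289 (SE 0.446, adjusted p = 0.22).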

How the results depend on the processing

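Counts of the 9 genes called, and the values of single genes, were recomputed under 11 kinds of alternative and without each array in turn. The share of all probes called is given here only for the replicate block, so the other counts are not read as results about the 9 genes. With the values requantified from the scanner signal or without a filter on dim probes, no call of a single gene changed. With the replicate block the count was 3 at 1 W and 5 at 3 W for AN minus EN and 2 for its change at 3 W, beside 10.8%, 21.1% and 4.12% of all probes. With the slide block the count was 3 and 4 at 1 W and 3 W. With array quality weights it was 4 at 1 W and 1 for the change at 3 W. With the groups compared fitted alone it was 2 at 1 W, 0 at 5 W and 0 for the change at 5 W. With the probe of next highest mean for Ptch1 and Hhip it was 2 at 1 W, 1 at 5 W and 0 for the change at 5 W. Under an unadjusted p below 0.05 and a fold change above 2, the count was 0 at 3 W, 1 at 5 W and 0 in the average for AN minus EN, 0 in EN at 1 W, 2 in EN at 5 W, 2, 3 and 2 in AN at 1 W, 3 W and 5 W against P0, and 1 for the change at 3 W, since most of these differences were below 2-fold. Leaving out 1 array gave 1 to 2 genes at 1 W (2 without the third AN array of 3 W), 1 to 3 at 3 W (1 without that array or any 1 EN array of 3 W), 1 to 2 at 5 W (1 without the first AN or the second EN array), and 2 to 6 in EN at 1 W (3 without the second EN array of P0, 2 without the first EN array of 1 W), and within 1.5 times the count elsewhere.

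The change of Ptch1 in EN at 3 W, -0.50 and not called in the main fit, was 0.896 (adjusted p = 0.0343) with the slide as a block, and 3 W shares no slide with P0. The rise of Dhh at 1 W was not called in EN after scaling to the 75th percentile (adjusted p = 0.0661) nor in AN with both groups fitted alone (adjusted p = 0.0588). The fall of Gli2 in EN at 1 W was not called after normexp background correction (adjusted p = 0.0569). The cause of these changes was not tested. Across ages, arrays of the same number correlated at -0.347 to 0.378 and share only a number, and with that number as a block Ihh in EN at 1 W (-0.672, adjusted p = 0.0351) and Ptch1 in AN at 3 W (-0.81, adjusted p = 0.0244) were called in addition. With the pairs as a block, the gained calls named in the report were the only changes of a call for AN minus EN.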
